A study of Mus musculus with 12 samples.

Results

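The Schlafen genes of the mouse were followed here across subcutaneous tumours that did or did not carry the signalling adaptor MAVS. Rows of the gene count table were taken by symbol (Slfn1, Slfn2, Slfn3, Slfn4, Slfn5, Slfn8 and Slfn9), which gave 7 genes of 45777 rows, and all 7 passed the filter on low counts that left 17885 genes to test. The tumours came from cells of the mouse lung cancer line 393P placed under the skin of male 129S2/SvPasCrl mice aged 8 weeks. There were 4 groups of 3 libraries: MAVS-reconstituted tumours given the inhibitor, MAVS-reconstituted controls, MAVS-knockout tumours given the inhibitor and MAVS-knockout controls. The inhibitor was BAY-1217389, directed at the spindle checkpoint kinase MPS1, at 5 mg/kg given 2 times daily for 2 days, with harvest on the day after. Controls are called Veh in the sample titles. The knockout groups are called Luc there, which the labels do not explain. Genotype belonged to the injected cell population, so the MAVS comparisons and any other difference between the populations cannot be told apart. The question the design poses is which expression changes after a pulse of MPS1 inhibition depend on MAVS.

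Schlafen proteins are interferon-induced regulators of growth and of RNA use. The mouse genes are sorted by protein length into a short group (Slfn1 and Slfn2), an intermediate group (Slfn3 and Slfn4) and a long group with a helicase-like part (Slfn5, Slfn8 and Slfn9). Several family members bind or cleave transfer RNA, the best known being human SLFN11, which limits protein synthesis from viral and host messages. In the mouse, Slfn2 protects transfer RNA from cleavage and keeps T cells quiescent, Slfn1 slows the growth of thymocytes, and Slfn4 has been studied in macrophages and other myeloid cells. Interferon reaches such genes through a complex that contains STAT2 and IRF9 and binds an interferon-stimulated response element (ISRE).

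All 7 genes lie in 1 cluster on chromosome 11 (GRCm38.p6), which spans 264 kb between positions 82951349 and 83215154. The order along the chromosome is Slfn5, Slfn9, Slfn8, Slfn2, Slfn1, Slfn4 and Slfn3, with the pseudogene Slfn10-ps between Slfn8 and Slfn2. Slfn8 and Slfn9 are read from the minus strand and the other five from the plus strand. The promoters shown are from RefSeq on GRCm38.p6, each 300 bases long, 250 before and 50 after an annotated start, 5′ to 3′ on the gene's own strand. They are those of Slfn8 and Slfn9, the members with the lowest adjusted p in the MAVS comparison averaged over treatments, of Slfn5, which also held a motif match, and of the short-group genes Slfn1 and Slfn2. Capitals mark the ISRE core GAAANNGAAA, searched on both strands, where N is any base (a match on the opposite strand reads TTTCNNTTTC).
Slfn8 (chr11:83020761-83021060, minus strand): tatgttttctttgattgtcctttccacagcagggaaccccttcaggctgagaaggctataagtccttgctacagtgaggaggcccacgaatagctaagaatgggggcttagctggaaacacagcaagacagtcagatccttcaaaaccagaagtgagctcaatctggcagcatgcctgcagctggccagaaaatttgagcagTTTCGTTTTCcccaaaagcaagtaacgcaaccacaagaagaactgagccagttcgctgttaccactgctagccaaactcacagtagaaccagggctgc
Slfn9 (chr11:82991781-82992080, minus strand): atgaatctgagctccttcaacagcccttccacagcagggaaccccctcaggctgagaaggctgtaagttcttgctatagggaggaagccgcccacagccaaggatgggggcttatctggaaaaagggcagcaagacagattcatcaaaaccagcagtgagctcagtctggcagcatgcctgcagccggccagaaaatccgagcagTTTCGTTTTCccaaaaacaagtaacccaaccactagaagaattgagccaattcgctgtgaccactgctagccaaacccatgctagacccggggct
Slfn5 (chr11:82951852-82952151, plus strand): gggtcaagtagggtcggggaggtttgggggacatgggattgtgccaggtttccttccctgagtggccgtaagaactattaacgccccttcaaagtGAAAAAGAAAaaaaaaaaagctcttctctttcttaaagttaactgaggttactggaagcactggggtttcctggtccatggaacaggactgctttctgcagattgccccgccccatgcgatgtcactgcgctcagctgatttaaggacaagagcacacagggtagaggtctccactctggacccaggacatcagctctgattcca
Slfn1 (chr11:83116570-83116869, plus strand): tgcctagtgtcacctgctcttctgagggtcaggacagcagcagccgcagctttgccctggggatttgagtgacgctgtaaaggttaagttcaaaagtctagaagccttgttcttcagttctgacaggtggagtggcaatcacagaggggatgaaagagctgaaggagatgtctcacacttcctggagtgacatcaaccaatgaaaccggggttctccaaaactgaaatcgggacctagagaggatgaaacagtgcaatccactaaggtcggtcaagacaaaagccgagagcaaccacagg
Slfn2 (chr11:83064862-83065161, plus strand): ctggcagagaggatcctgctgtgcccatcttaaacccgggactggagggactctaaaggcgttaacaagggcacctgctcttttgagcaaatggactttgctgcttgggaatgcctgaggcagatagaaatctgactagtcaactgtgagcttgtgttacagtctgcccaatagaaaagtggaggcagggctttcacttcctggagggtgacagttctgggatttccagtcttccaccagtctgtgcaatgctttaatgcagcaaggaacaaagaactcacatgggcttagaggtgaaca

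The 3 long-group promoters each held an ISRE core, and none of the promoters of Slfn1, Slfn2, Slfn3 and Slfn4 did. In Slfn9 and Slfn8 the matched letters were the same, GAAAACGAAA on the opposite strand, and began 45 and 48 bases before the start. A second RefSeq start of Slfn8 put the same match 136 bases upstream. In Slfn5 the match was GAAAAAGAAA on the gene's strand, 155 bases before the start used. That window begins at 82951852, downstream of the gene's first annotated position (82951349), so the match lies inside the annotated gene. An ISRE core is found in 3.44% of the 32851 promoters of the same length in the table. The gamma interferon site TTCNNNGAA, searched on both strands and found in 8.30% of these promoters, matched none of the 7 genes. No match means only that these letters are not in the window. The Slfn8 and Slfn9 promoters were identical at 248 of 300 aligned bases (82.7%), with a longest shared run of 20 bases, while the other pairs were between 47.0% and 54.7% identical.

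Total counts ran from 52983715 to 69108411 per library. Mavs, whose state defines the genotype, had 50.1, 53.8 and 62.8 CPM (counts per library scaled to a common total) in reconstituted inhibitor tumours, 85.1, 68.9 and 59.1 CPM in reconstituted controls, 43.5, 39.4 and 41.0 CPM in knockout inhibitor tumours and 40.5, 42.5 and 45.7 CPM in knockout controls. No reconstituted library fell as low as any knockout library, with a log2 difference of 0.58 ± 0.09 (SE, edgeR adjusted p = 0.0105). The knockout libraries thus held Mavs reads too, and a count per gene cannot tell reads of the edited locus from those of the introduced copy or of host cells. Reconstituted inhibitor replicate 1 stood at an end of the first principal component (28.5% of the variance) and held 2873 CPM of skeletal muscle markers, the highest sum of any library. Reconstituted control replicate 2 stood at the other end with 5.80 CPM, the lowest. Of 12 epithelial markers, Cldn7, Nkx2-1 and Sftpc were at 0 in every library. The list's sum was still 6937 to 10131 CPM in reconstituted inhibitor tumours and 6397 to 6816 CPM in reconstituted controls. It was 7363 to 8192 CPM in knockout inhibitor tumours and 7509 to 7924 CPM in knockout controls. The labels name replicates but not separate animals, so p-values measure only the spread between these samples, which may be technical.

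**Figure D1:**
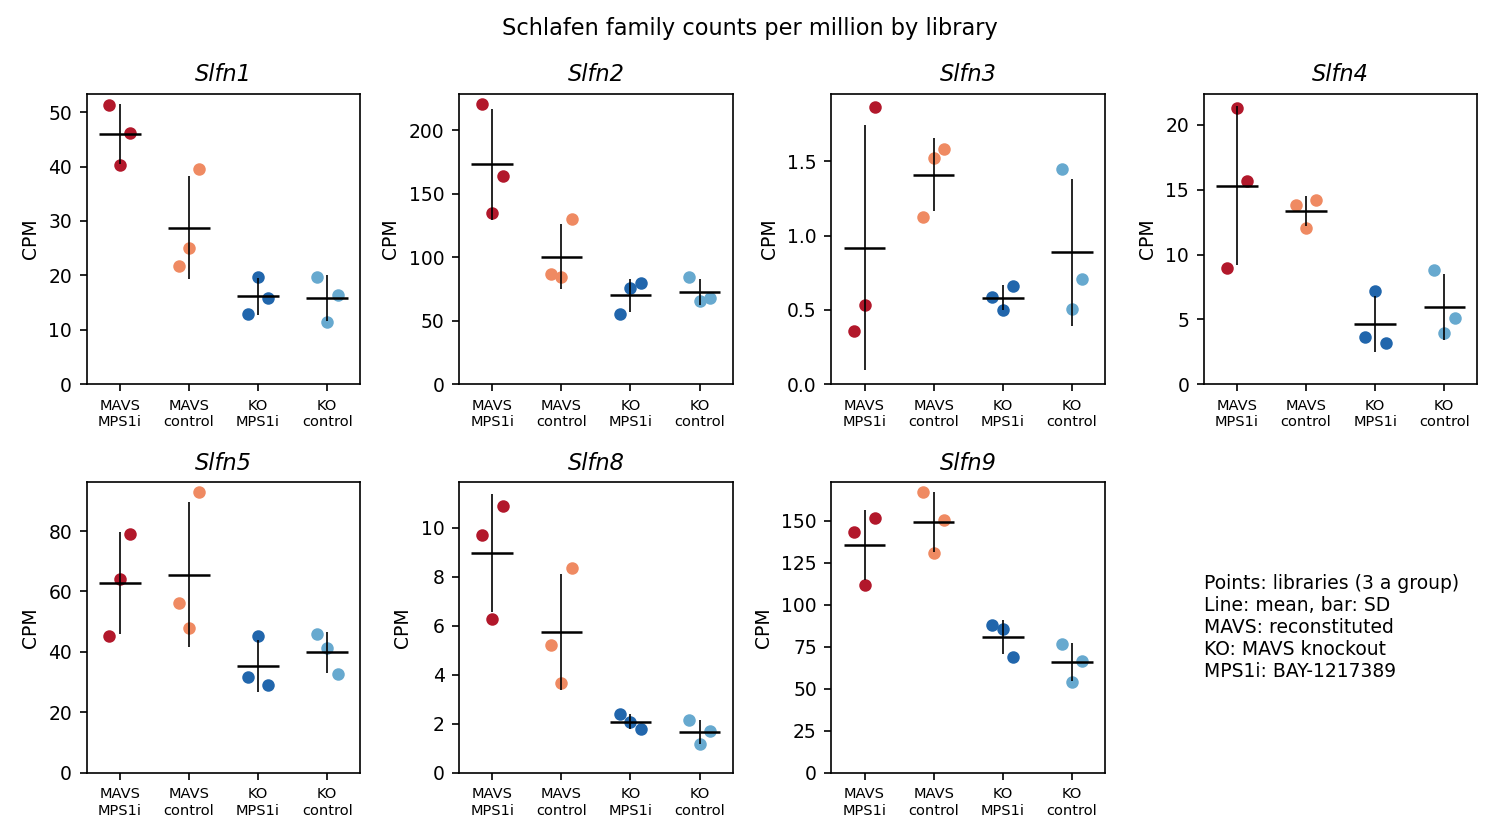
CPM (y axis, linear, starting at 0) of each Schlafen gene in the 12 libraries; points are libraries, horizontal lines group means and vertical bars the SD over 3 libraries, with reconstituted groups left of knockout groups. For Slfn1, Slfn4, Slfn8 and Slfn9 the 6 reconstituted points all lie above the 6 knockout points.

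Across both treatments, the Schlafen genes were higher in reconstituted than in knockout tumours. The log2 difference was positive for 7 of 7 members, as for 50.1% of all genes, and 5 of 7 rose at an edgeR adjusted p below 0.05 (Slfn1, Slfn2, Slfn4, Slfn8 and Slfn9), where 1.09% of all genes tested were called higher. The median over the 7 was 0.97 on the log2 scale, against 0.00028 over all genes. In 4 of 7 members every reconstituted library exceeded every knockout library, as 1.33% of all genes did. These are changes in RNA of whole tumour pieces, in which fewer cells of a type and less RNA per cell cannot be told apart.

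In the short group, Slfn1 had 51.3, 40.3 and 46.2 CPM in reconstituted inhibitor tumours, 21.8, 25.1 and 39.5 CPM in reconstituted controls, 12.9, 19.7 and 15.8 CPM in knockout inhibitor tumours and 19.8, 11.4 and 16.5 CPM in knockout controls. All 6 reconstituted libraries lay above all 6 knockout libraries, and the 3 that received the inhibitor were the highest of the 12. The averaged log2 difference was 1.18 ± 0.18 (SE), a 2.27-fold level (edgeR adjusted p = 0.00842). Slfn2, the transfer RNA protector, had 221, 135 and 164 CPM in reconstituted inhibitor tumours, 86.9, 84.6 and 130 CPM in reconstituted controls, 55.2, 75.4 and 79.7 CPM in knockout inhibitor tumours and 84.7, 65.5 and 67.8 CPM in knockout controls. Here the genotypes met at their edges, since the lowest reconstituted library (84.6 CPM) fell just under the highest knockout library (84.7 CPM). The difference was 0.89 ± 0.16 (SE, edgeR adjusted p = 0.0177).

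In the long group, Slfn8 showed the largest log2 difference of the 7 members. It had 9.72, 6.27 and 10.9 CPM in reconstituted inhibitor tumours, 5.21, 3.67 and 8.35 CPM in reconstituted controls, 2.38, 2.09 and 1.80 CPM in knockout inhibitor tumours and 2.15, 1.16 and 1.72 CPM in knockout controls. The lowest reconstituted library was above the highest knockout library, and the difference was 1.94 ± 0.23 (SE), a 3.83-fold level (edgeR adjusted p = 0.00249). Slfn9, its neighbour with the similar promoter, had 143, 112 and 151 CPM in reconstituted inhibitor tumours, 167, 131 and 150 CPM in reconstituted controls, 87.6, 85.7 and 68.9 CPM in knockout inhibitor tumours and 76.7, 54.0 and 66.5 CPM in knockout controls. The genotypes did not overlap, and the difference was 0.97 ± 0.11 (SE, edgeR adjusted p = 0.00207), the smallest SE of the 7. Slfn5, a nuclear family member, had 45.4, 64.0 and 79.2 CPM in reconstituted inhibitor tumours, 56.0, 47.8 and 92.9 CPM in reconstituted controls, 31.8, 45.3 and 29.2 CPM in knockout inhibitor tumours and 46.0, 41.2 and 32.6 CPM in knockout controls. Its genotypes overlapped slightly and its difference of 0.77 ± 0.19 (SE) did not pass (edgeR adjusted p = 0.0820). With DESeq2, which called 5.71% of genes, it did (adjusted p = 0.00263), as it did in edgeR without the pair of libraries farthest apart on the first component (adjusted p = 0.0419).

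In the intermediate group, Slfn4 had 8.99, 21.3 and 15.7 CPM in reconstituted inhibitor tumours, 13.9, 12.03 and 14.2 CPM in reconstituted controls, 3.63, 7.16 and 3.18 CPM in knockout inhibitor tumours and 8.80, 3.96 and 5.13 CPM in knockout controls. The lowest reconstituted library (8.99 CPM) was barely above the highest knockout library (8.80 CPM), and the averaged difference was 1.44 ± 0.27 (SE, edgeR adjusted p = 0.0277). Slfn3, which has been studied in rat enterocytes and in T cells, was the least abundant member, with 18 to 111 counts per library. It had 0.356, 0.536 and 1.87 CPM in reconstituted inhibitor tumours, 1.13, 1.52 and 1.58 CPM in reconstituted controls, 0.584, 0.501 and 0.664 CPM in knockout inhibitor tumours and 1.45, 0.506 and 0.709 CPM in knockout controls. The reconstituted inhibitor group held both the lowest and the highest of the 12 values, and the difference of 0.67 ± 0.39 (SE) did not pass (edgeR adjusted p = 0.479, 95% interval from -0.20 to 1.53).

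The calls of Slfn1, Slfn8 and Slfn9 in the averaged comparison held without any single library, at edgeR adjusted p up to 0.0328, 0.0131 and 0.00941. Slfn2 lost its call without knockout inhibitor replicate 1 (adjusted p = 0.0525) or knockout control replicate 2 (adjusted p = 0.0573). Slfn4 lost its call without either of these (adjusted p = 0.0826 and 0.0696) and without reconstituted control replicate 1 or 3 (0.0544 and 0.0675), knockout inhibitor replicate 3 (0.0779) or knockout control replicate 3 (0.0665). The number of members called thus ranged from 3 to 5 over the 12 omissions.

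**Figure D2:**
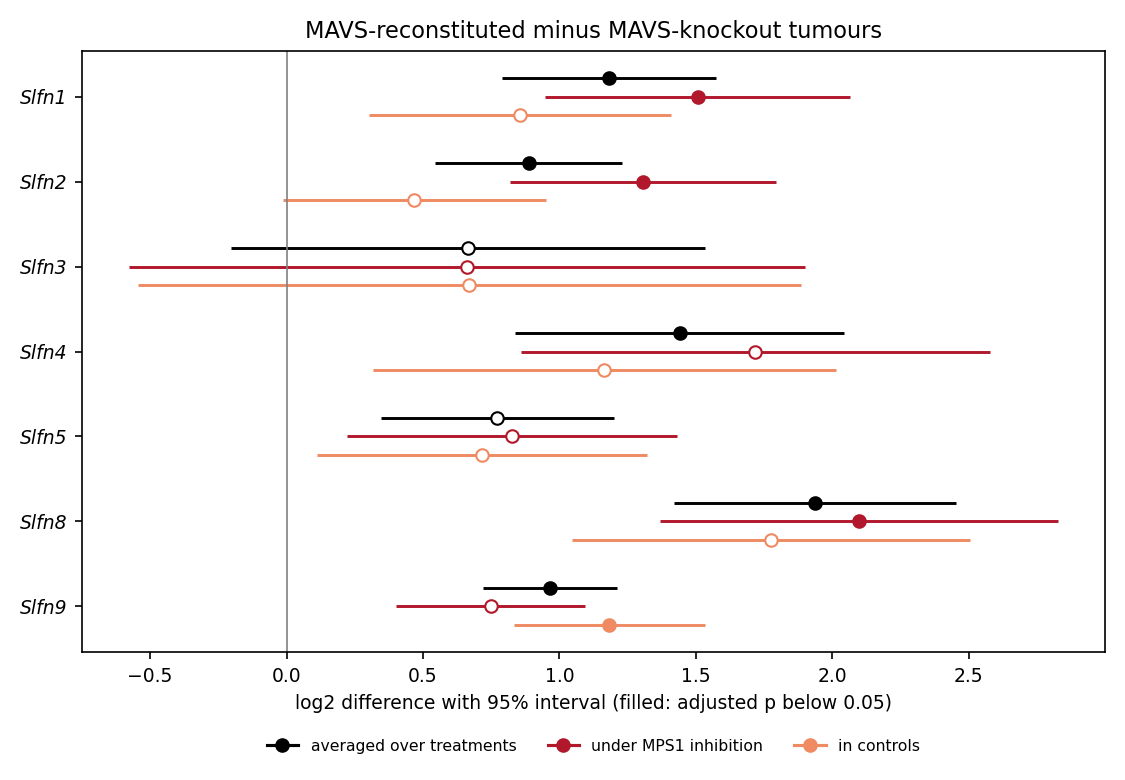
Log2 difference of reconstituted minus knockout tumours (x axis) for each Schlafen gene, averaged over treatments (black), under MPS1 inhibition (red) and in controls (orange); bars are 95% intervals from the edgeR fit and filled circles mark an adjusted p below 0.05. All 21 estimates lie to the right of 0, and Slfn8 lies farthest right in each comparison.

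Among tumours that received the inhibitor, 3 of 7 members rose in reconstituted tumours (Slfn1, Slfn2 and Slfn8), where 0.52% of all genes were called higher. The differences were 1.51 ± 0.25 for Slfn1, 1.31 ± 0.22 for Slfn2 and 2.10 ± 0.33 for Slfn8 (SE, edgeR adjusted p = 0.0316, 0.0316 and 0.0274). The 3 reconstituted libraries lay above the 3 knockout libraries in 6 of 7 members, Slfn3 being the exception, but 10.9% of all genes also separated this way. Slfn4 (1.72 ± 0.39), Slfn9 (0.75 ± 0.16) and Slfn5 (0.83 ± 0.28) did not pass, with edgeR adjusted p of 0.0709, 0.0646 and 0.150, and neither did Slfn3 (0.66 ± 0.56, adjusted p = 0.512). These calls were lost on omission of any 1 of several libraries, while the differences stayed above 1 on the log2 scale. No member was called without reconstituted inhibitor replicate 1, the library rich in muscle markers, or without any 1 of the knockout inhibitor replicates, where the difference of Slfn8 was 2.04, 2.20, 2.10 and 2.00 and its edgeR adjusted p 0.0849, 0.147, 0.105 and 0.120. Over these 4 omissions the difference ran from 1.37 to 1.68 for Slfn1 and from 1.09 to 1.41 for Slfn2. Without knockout control replicate 3 only Slfn8 was called (Slfn1 and Slfn2 at 0.0501). Without reconstituted inhibitor replicate 3 the count was 5, with Slfn4 (0.0336) and Slfn9 (0.0321) added. That omission also raised the number of genes called over the whole table to 2816, from 116 in the main fit. DESeq2 called 6 of 7, where it called 7.21% of the genes it gave an adjusted p.

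Among controls, 1 of 7 members rose in reconstituted tumours, where 0.117% of all genes were called higher. That member was Slfn9, at a difference of 1.18 ± 0.16 (SE, edgeR adjusted p = 0.0214). Slfn8 had a larger estimate, 1.78 ± 0.33 (adjusted p = 0.0721), followed by Slfn4 at 1.17 ± 0.39 (0.192), Slfn1 at 0.86 ± 0.25 (0.169), Slfn5 at 0.72 ± 0.27 (0.211), Slfn3 at 0.67 ± 0.55 (0.537) and Slfn2 at 0.47 ± 0.22 (0.276), none of which passed in edgeR. Libraries of the genotypes did not overlap in 5 of 7 members (Slfn1, Slfn4, Slfn5, Slfn8 and Slfn9), as in 15.6% of all genes. The call of Slfn9 was lost without reconstituted control replicate 1 (adjusted p = 0.0996) or 3 (0.0592) and without knockout control replicate 2 (0.0952) or 3 (0.0693). DESeq2 called Slfn1, Slfn4, Slfn8 and Slfn9, where it called 4.92% of genes.

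The effect of the inhibitor itself was read within each genotype. In reconstituted tumours the short group had the highest estimates, 0.79 ± 0.22 for Slfn2 and 0.67 ± 0.25 for Slfn1 (SE, inhibitor minus control), and the long-group gene Slfn9 was near 0 at -0.14 ± 0.16. None of the 7 members was called by edgeR, where 0% of all genes were called, although 5827 of 17885 genes had an unadjusted p below 0.05. The adjusted p was 0.0729 for Slfn2, a value it shared with many other genes after adjustment, and 0.0972 for Slfn1. The inhibitor libraries lay above the control libraries in 2 of 7 members, Slfn1 (lowest inhibitor library 40.3 CPM, highest control library 39.5 CPM) and Slfn2 (135 and 130 CPM), as in 14.7% of all genes. DESeq2 called Slfn1 (adjusted p = 0.0360) and Slfn2 (0.00936) among 3495 genes, 23.9% of those with an adjusted p. Without reconstituted inhibitor replicate 3, edgeR called 5683 genes, among them Slfn2 (0.82, adjusted p = 0.0294) and, as lower under the inhibitor, Slfn3 (-1.65, adjusted p = 0.0192).

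The other members of the family gave smaller or less certain estimates in reconstituted tumours. Slfn8 was at 0.64 ± 0.32 (SE, edgeR adjusted p = 0.183), Slfn4 at 0.20 ± 0.38 (0.743), Slfn5 at -0.06 ± 0.27 (0.895) and Slfn3 at -0.61 ± 0.55 (0.458). The 95% interval of Slfn9 ran from -0.48 to 0.21 and that of Slfn5 from -0.66 to 0.54. Changes of up to those sizes are therefore not shown to be absent. Whether the response of the short group differs from that of the long group was not tested.

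In knockout tumours none of the 7 members was called (edgeR, every adjusted p equal to 1), where 0% of all genes were called and 305 had an unadjusted p below 0.05. The estimates ran from -0.60 ± 0.57 for Slfn3 to 0.32 ± 0.33 for Slfn8, with Slfn1 at 0.02 ± 0.25 and Slfn2 at -0.05 ± 0.22 (SE). The 95% interval of Slfn1 was -0.53 to 0.58 and that of Slfn2 was -0.53 to 0.43. No member had inhibitor and control libraries that did not overlap, against 4.47% of all genes with inhibitor libraries above and 4.25% below. DESeq2 called 3 genes in the table (0.0109%), none of them a member.

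The dependence of the inhibitor effect on MAVS is the difference between these effects, which equals the difference between the MAVS effects under the inhibitor and in controls. It was 0.84 ± 0.31 for Slfn2 and 0.65 ± 0.35 for Slfn1 (SE), with edgeR adjusted p of 0.153 and 0.267. Of the 7 members, 0 were called, where 0% of all genes were called in edgeR and 4421 had an unadjusted p below 0.05. Among the members only Slfn2 was under that level (unadjusted p = 0.0202, 95% interval 0.16 to 1.52). Slfn9 had the opposite sign, -0.44 ± 0.22 (adjusted p = 0.242, 95% interval -0.92 to 0.05). Slfn4 was at 0.55 ± 0.54, Slfn8 at 0.32 ± 0.46, Slfn5 at 0.11 ± 0.39 and Slfn3 at -0.01 ± 0.85, with adjusted p between 0.539 and 0.995. DESeq2 called 1239 genes, 9.1% of those with an adjusted p, and 0 members. Limma-voom called 0 members for the inhibitor in either genotype and for the interaction.

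**Figure D3:**
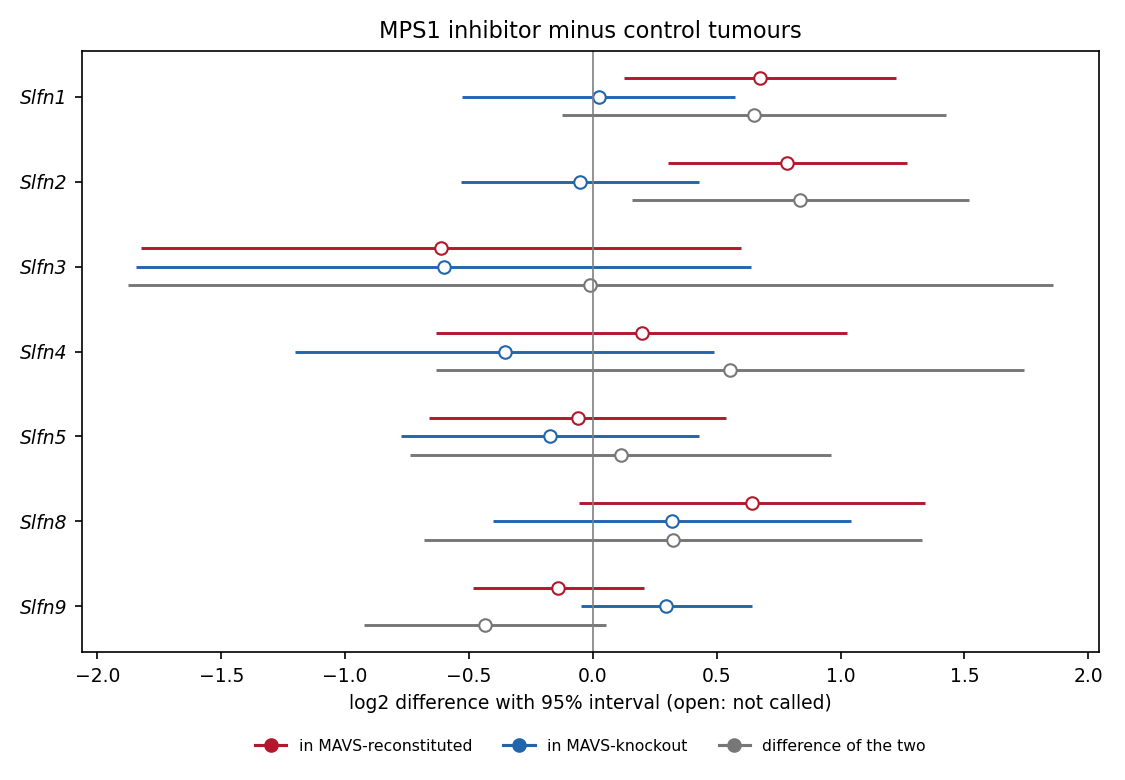
Log2 difference of inhibitor minus control tumours (x axis) in reconstituted (red) and knockout (blue) tumours, and the difference between both effects (grey), with 95% intervals from the edgeR fit; open circles mark genes that were not called. In reconstituted tumours the intervals of Slfn1 (0.13 to 1.22) and Slfn2 (0.30 to 1.27) lie above 0 before adjustment, and those of the other five include it.

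Levels of different members were compared per length, as CPM per kilobase of the GENCODE exon union, where Slfn2 led in every group. In reconstituted inhibitor tumours Slfn2 averaged 104 ± 26.2, Slfn1 24.6 ± 2.94, Slfn9 22.7 ± 3.50, Slfn5 9.94 ± 2.67, Slfn4 3.86 ± 1.55, Slfn8 2.19 ± 0.588 and Slfn3 0.269 ± 0.242 (SD, n = 3). In that order, the ranges over libraries overlapped between Slfn1 and Slfn9 and between Slfn4 and Slfn8, and between no other neighbours. In knockout controls Slfn2 averaged 43.7 ± 6.32, Slfn9 11.02 ± 1.90, Slfn1 8.52 ± 2.27, Slfn5 6.31 ± 1.07, Slfn4 1.504 ± 0.637, Slfn8 0.410 ± 0.121 and Slfn3 0.260 ± 0.145 (SD, n = 3). There the ranges overlapped between Slfn9 and Slfn1, between Slfn1 and Slfn5 and between Slfn8 and Slfn3. RefSeq places the end of Slfn9 4074 bases beyond the GENCODE model. With that stretch in its length, the per-length level of Slfn9 was 13.5 ± 2.08 in reconstituted inhibitor tumours and 6.55 ± 1.13 in knockout controls (SD, n = 3). In reconstituted inhibitor tumours its range (11.2 to 15.1) then overlapped that of Slfn5 (7.18 to 12.5) and not that of Slfn1 (21.6 to 27.5). In knockout controls its mean was then below that of Slfn1, with overlapping ranges. The order of these genes thus depends on the length used.

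The genes of the cluster share stretches of sequence, so part of the reads may be shared between genes. Of the 50-base stretches of each member's transcripts, the share found in a transcript of another gene was 0.606% for Slfn1, 4.27% for Slfn2, 15.99% for Slfn3, 11.3% for Slfn4, 11.1% for Slfn5, 14.6% for Slfn8 and 11.9% for Slfn9. Slfn8 shared its stretches mainly with Slfn10-ps and Slfn9, Slfn3 and Slfn4 with each other and with Gm11427, and Slfn5 with the antisense gene Slfn5os. How the authors' counting treated such reads and whether it used strand is not stated in the sources at hand. The values of Slfn3, Slfn4, Slfn5, Slfn8 and Slfn9 are uncertain for that reason, by amounts that these shares do not bound. Slfn9, at a mean of 136 CPM in reconstituted inhibitor tumours and 65.8 CPM in knockout controls, shared 6.52% of its stretches with Slfn8. Slfn8 averaged 8.96 and 1.68 CPM there, so Slfn9 reads could make up much of its count, which was not tested. Slfn4 shared 6.28% with Slfn3, the least abundant member. Slfn5os had 0 counts in every library. At 100 bases the shares were between 0% for Slfn1 and 6.40% for Slfn5, and Slfn3 shared 93 stretches with Gm11427.

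Of the other rows whose symbol begins with Slfn, only Slfn10-ps was testable. This pseudogene had 1.36, 1.92 and 4.61 CPM in reconstituted inhibitor tumours, 3.55, 3.12 and 4.66 CPM in reconstituted controls, 1.66, 1.99 and 1.52 CPM in knockout inhibitor tumours and 2.06, 1.25 and 1.16 CPM in knockout controls. Its averaged difference of 0.98 ± 0.29 (SE) did not pass (edgeR adjusted p = 0.126), while DESeq2 called it higher in the averaged comparison and in controls. Slfn14 had 3 counts in each of 2 libraries and 0 in the rest. Slfnl1, which lies on chromosome 4, had 5 counts in each knockout control and 0 in all other libraries.

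None of the testable genes read beside the cluster was called. Read were the 5 nearest protein-coding genes on each side outside the span of Slfn rows on chromosome 11, from Slfn5os to Slfn14. Genes overlapping that span were left out. Unc45b, whose transcripts hold 104 of the 50-base stretches of Slfn5os, was not among the 10. Of the 10, 8 were testable, among them Nle1 and Ap2b1. By edgeR, DESeq2 or limma-voom, 0 of 8 were called in any of the 6 comparisons. In the averaged MAVS comparison, where 1.56% of all genes were called in either direction, 0 of the 8 had an unadjusted edgeR p below 0.05, and their log2 differences ran from -0.82 to 0.60 with a median of 0.02. In the other comparisons 0 to 2 of the 8 were under that unadjusted level.

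**Figure D4:**
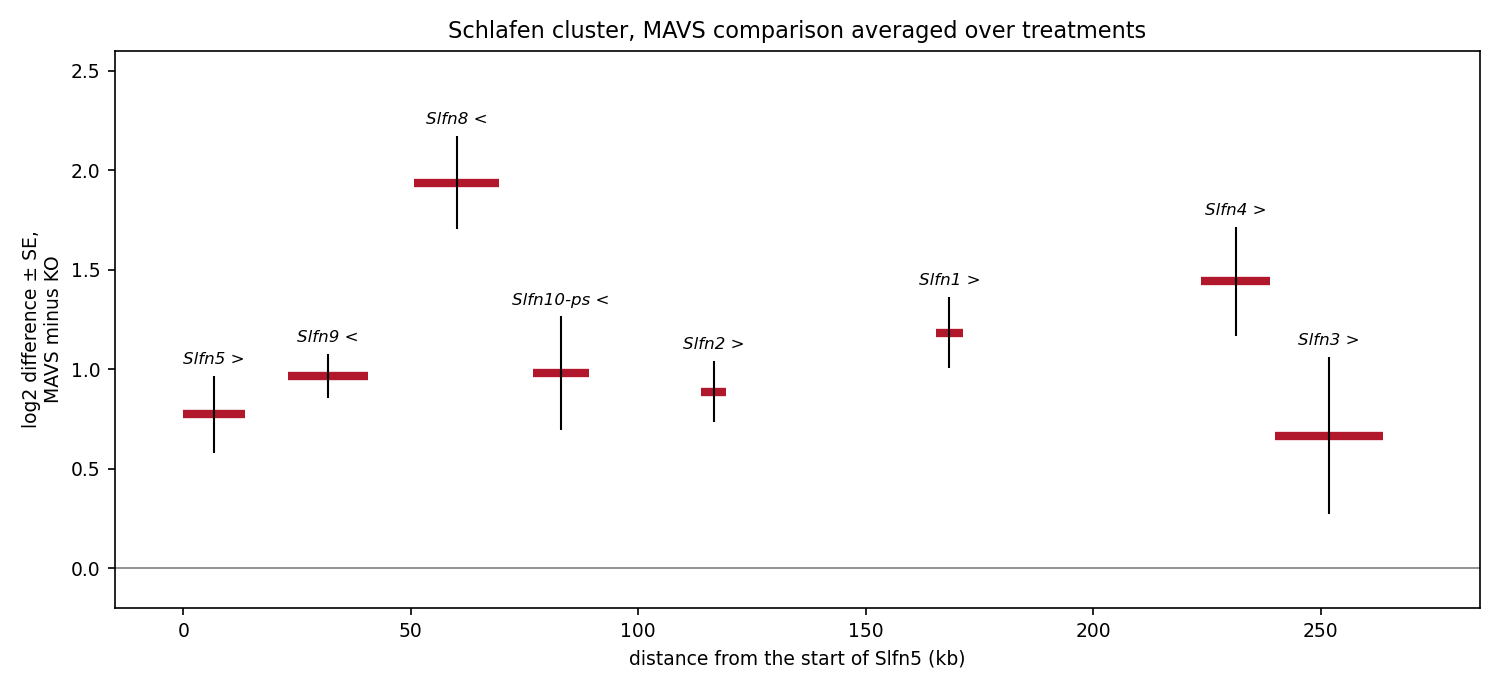
Testable genes of the Schlafen cluster by distance in kb from the start of Slfn5 (x axis), with the log2 difference of reconstituted minus knockout tumours averaged over treatments and its SE (y axis); bar lengths are to scale and arrowheads give the strand. All 8 genes, Slfn10-ps among them, lie between 0.67 and 1.94.

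Other genes of the interferon pathway were read from lists, which were chosen with earlier results of these data known. Their counts describe these lists and are no independent test. Of 40 other interferon-stimulated genes, 36 rose in reconstituted tumours in the averaged comparison, 26 under the inhibitor and 6 in controls (edgeR). In the same order edgeR called 1.09%, 0.52% and 0.117% of all genes higher. The list's medians were 1.71, 2.19 and 1.28 on the log2 scale, against 0.97, 1.31 and 0.86 for the 7 Schlafen genes. DESeq2 called 40, 40 and 29 of the 40 in the same order, where it called 5.71%, 7.21% and 4.92% of genes. In controls 35 of the 40 had an unadjusted edgeR p below 0.05, where 3352 of 17885 genes did. Oas1g and Oas2, which make the oligoadenylates that switch on RNase L, were at 3.60 ± 0.27 and 2.51 ± 0.23 (SE, averaged comparison, adjusted p = 0.000257 and 0.000674). Of 19 genes of the signalling chain, 4 rose in the averaged comparison: the response element binders Stat2 (1.45 ± 0.19) and Irf9 (0.95 ± 0.14), the transcription factor Irf7 (2.28 ± 0.32) and the feedback inhibitor Usp18 (2.07 ± 0.25). The same 4 were called under the inhibitor and 0 of 19 in controls, where 5 had an unadjusted edgeR p below 0.05 and DESeq2 called 4 and limma-voom 0. Ifnb1, the interferon beta gene, had 0 to 3 counts per library and was not testable.

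Markers of immune cells moved in part with genotype. Of 12 markers of natural killer and cytotoxic cells, 3 rose in the averaged comparison, where 1.09% of all genes were called higher. They were Gzma (2.28 ± 0.38), Gzmb (2.09 ± 0.27) and Prf1 (2.62 ± 0.32, SE, edgeR adjusted p = 0.0138, 0.00353 and 0.00270). The sum over all 12 markers ran from 116 to 150 CPM in reconstituted inhibitor tumours and 77.3 to 108 CPM in reconstituted controls. It was 36.4 to 51.8 CPM in knockout inhibitor tumours and 26.2 to 54.3 CPM in knockout controls, so that genotypes did not overlap. Of 21 T cell markers 0 were called, with sums of 161 to 300, 215 to 233, 208 to 257 and 198 to 242 CPM in the same group order, and the list's median difference was 0.48. Of 15 monocyte and macrophage markers 0 were called, with sums of 2812 to 3912, 2305 to 2689, 2235 to 2773 and 2646 to 3102 CPM and a median of -0.003. The testable markers of dendritic cells (9 of 10), neutrophils (8 of 12) and B cells (5 of 10) gave 0 calls and medians of 0.35, -0.29 and 0.11. An unadjusted edgeR p below 0.05 was reached by 10 natural killer and cytotoxic markers and 9 T cell markers. It was also reached by 2 macrophage, 1 dendritic, 1 neutrophil and 1 B cell marker. Over all genes, 2700 of 17885 were under that unadjusted level in the averaged comparison. DESeq2, which called 5.71% of genes, called 8 natural killer and cytotoxic, 4 T cell, 2 macrophage and 1 dendritic cell marker. Each was higher in reconstituted tumours. Limma-voom called 3 natural killer and cytotoxic markers and 1 B cell marker. Ptprc, the CD45 gene of blood cells, was at 0.31 ± 0.13 (adjusted p = 0.282). Sums for dendritic cells were 108 to 126, 89.2 to 122, 84.8 to 94.6 and 79.8 to 93.6 CPM, for neutrophils 54.3 to 81.8, 49.1 to 53.6, 47.8 to 62.8 and 44.3 to 70.1 CPM, and for B cells 11.1 to 17.3, 7.79 to 14.5, 8.57 to 14.8 and 11.3 to 11.95 CPM. Some defining markers were at 0 in every library of a group: the B cell genes Ms4a1 in both reconstituted groups and Fcer2a in all groups but knockout controls, and the neutrophil granule genes Elane and Ngp in both reconstituted groups and Camp in reconstituted controls. The part of cell composition in the Schlafen differences was not tested.

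Likeness between genes was described by Pearson's r of log2 CPM over the 12 libraries, which share their 4 groups and thus the genotype shift. Among members, Slfn1 and Slfn2 were most alike (r = 0.954), followed by Slfn1 and Slfn8 (0.940) and Slfn8 and Slfn9 (0.919), while Slfn2 and Slfn3 were least alike (0.086). Outside the family, 11992 genes that averaged at least 1 on the log2 CPM scale were ranked for each member. Slfn8 was closest to Ifit2 (0.990), Trim34b (0.983) and Apol7a (0.982), and Slfn9 to Samd9l (0.975), Eif2ak2 (0.972), the gene of the RNA-sensing kinase PKR, and Helz2 (0.970). Slfn1 was closest to Xaf1 (0.984), H2-T24 (0.981) and Stat2 (0.980), and Slfn2 to Serpinb9 (0.984), which encodes a granzyme B inhibitor, Ifi35 (0.983) and Acadl (0.983). Slfn4 was closest to the antiviral genes Rsad2 (0.908) and Mx1 (0.900) and to the perforin gene Prf1 (0.889). Slfn5 was closest to the lymphoid transcription factor gene Ikzf1 (0.919), Notch4 (0.887) and Ddx60 (0.886), and Slfn3 to Slc29a3 (0.912), Tnfsf8 (0.894) and Gng12 (0.883).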

How the data were processed

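RNA of the 12 tumour samples was read as stranded, polyadenylated libraries, per the labels' protocols. The deposited values are whole-number counts per gene, which the authors did not normalize as far as the values show. Trimmomatic, HISAT2, StringTie and the build GRCm38 (mm10) are listed in the submitters' processing notes, without versions or roles. The 7 members and the lists were chosen with earlier results of these data known.

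Groups came from the sample titles and genotype labels. All 12 libraries entered a single edgeR 4.0.16 fit in R 4.3.3 with a mean per group, the filterByExpr filter (17885 genes) and TMM factors (0.920 to 1.03). The quasi-likelihood F-test gave 6 comparisons: MAVS averaged over treatments, under the inhibitor and in controls, the inhibitor in each genotype, and the interaction. Benjamini-Hochberg adjustment ran over all genes tested, with calls made at adjusted p below 0.05. Tests were two-sided. CPM values are counts scaled by library totals and TMM factors, and 3 counts were worth 0.0434 to 0.0566 CPM at the unscaled totals. The SE of a log2 difference was derived as its absolute value divided by the square root of the F statistic. The 95% intervals were derived from this SE and a t quantile, and both are approximate. Log2 CPM for likeness used TMM factors and a prior count of 2. Member genes were named whatever their values, and from other lists up to 4 called genes with the smallest p in the averaged comparison, plus the 3 most alike genes per member. The fit was checked on simulated counts.

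Promoters and motifs were read from RefSeq sequences (GRCm38.p6), transcripts from GENCODE. Alternatives were DESeq2 1.42.0 size factors or its Wald test, limma 3.58.1 (voom), library totals alone, looser and stricter filters, a replicate block, the 6 libraries compared alone and omission of single libraries. The omission of both libraries at the ends of the first principal component was added after the data were seen.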

Additional observations from a re-analysis of the deposited data

How the results depend on the processing

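In the averaged MAVS comparison, 4 to 6 of 7 members were called under every alternative other than omission of single libraries, against 5, and 3 to 5 over those omissions. Under the inhibitor the main count of 3 became 6 with the DESeq2 Wald test, 1 (Slfn8) with a replicate block, 0 without the pair of libraries farthest apart on the first principal component, and 0 to 5 over single omissions. In controls the count of 1 became 4 with DESeq2, 0 with the 6 libraries compared alone, and 0 to 1 over single omissions. For the inhibitor in reconstituted tumours the count of 0 became 2 with DESeq2 and ran from 0 to 2 over single omissions. In knockout tumours and for the interaction it was 0 throughout.

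Log2 differences changed sign only where the estimate was uncertain. Over single omissions Slfn3 ran from -0.38 to 1.04 for MAVS under the inhibitor and from -1.05 to 0.37 for the interaction, where it was 0.43 when that pair of libraries was left out. Slfn5 ran from -0.26 to 0.27 and Slfn4 from -0.12 to 0.47 for the inhibitor in reconstituted tumours. In knockout tumours Slfn1 ran from -0.17 to 0.21, Slfn2 from -0.15 to 0.10 and Slfn4 from -0.81 to 0.035. Slfn5 ran from -0.090 to 0.44 for the interaction. The causes of these changes were not tested.

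The number of genes called in the whole table moved as well. It was 279 for the averaged MAVS comparison (953 with DESeq2), 116 under the inhibitor (1168), 25 in controls (721), 0 for the inhibitor in reconstituted tumours (3495) and 0 for the interaction (1239). In that order it ran from 115 to 331, 0 to 2816, 0 to 80, 0 to 5683 and 0 to 4005 over single omissions, the upper ends of the last 4 being without reconstituted inhibitor replicate 3.

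Same-numbered samples correlated above 0.1 in 9 of 18 pairs (-0.11 to 0.31), and 6 of 12 libraries correlated best with their own number. These values do not settle whether the numbers pair the samples, and the main fit used no pairing. The replicate block left 207, 43 and 15 genes called in the 3 MAVS comparisons, and Slfn4 lost its averaged call (adjusted p = 0.0553). Depth limited Slfn3 most, at 18 to 111 counts per library.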

Other observations

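Genes of transfer RNA cleavage and ribosome stalling, the processes in which Schlafen proteins act, were read from a list of 18. In the averaged MAVS comparison 9 of 18 had a positive log2 difference, with a median of 0.01. Of all genes 1.09% were called higher there, and of the 18 only 1 rose in reconstituted tumours. That gene was Samd9l, which is also in the interferon-stimulated list, at 1.87 ± 0.15 (SE, edgeR adjusted p = 0.000342). It was called in the averaged comparison, under the inhibitor (1.61 ± 0.21) and in controls (2.13 ± 0.21), and it was also the gene most like Slfn9 over the 12 libraries. The other 17 were not called by edgeR in any of these 3 comparisons. In the averaged one 4 of the 18 had an unadjusted edgeR p below 0.05, as had 2700 of 17885 genes. Under the inhibitor 6 of the 18 did, where 3523 of 17885 genes did. In controls 8 of the 18 did, where 3352 of 17885 genes did. DESeq2 called 1, 2 and 2 of the 18 in the same order, where it called 5.71%, 7.21% and 4.92% of genes. It called 3 for the inhibitor in reconstituted tumours and 2 for the interaction, where it called 23.9% and 9.1% of genes.

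Other lists of tissue markers gave few calls in the averaged MAVS comparison. Of 8 testable epithelial markers, 2 fell in reconstituted tumours, Cldn4 (-0.57 ± 0.11) and Epcam (-0.35 ± 0.07, SE, edgeR adjusted p = 0.0285 and 0.0310). Over all genes 1.56% were called in either direction. No marker of fibroblasts (11), endothelium (10), skeletal muscle (10) or red cells (5 testable of 7) was called, with list medians of -0.37, -0.10, 0.97 and -1.55. In that order 4, 1, 1 and 5 markers had an unadjusted edgeR p below 0.05, where 2700 of 17885 genes did. DESeq2 called 0, 1, 0 and 3 markers, each lower in reconstituted tumours, where it called 5.71% of genes. Limma-voom called 0 in each list.

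The 7 Schlafen genes together held 443 ± 55.3 CPM in reconstituted inhibitor tumours, 365 ± 66.7 CPM in reconstituted controls, 210 ± 22.8 CPM in knockout inhibitor tumours and 203 ± 32.6 CPM in knockout controls (SD, n = 3), sums to which Slfn2 and Slfn9 contributed most.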
